A study of Mus musculus with 6 samples.

Results

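The region described here is the far end of the Sox2 side of the locus as seen from the Sox2 control region (SCR), a cluster of enhancers that Sox2 needs in pluripotent cells. Its members were the DpnII restriction fragments of mouse chromosome 3 (mm9) whose midpoint lay from 33160500 to 34003359, which is 2122 of the 391360 fragments listed for that chromosome. It spans 842.86 kb, ends where the long noncoding RNA Sox2ot begins, and lies 657 to 1500 kb from the bait at position 34660500. Chromosome conformation capture with sequencing (4C-seq) counts, for each fragment of the chromosome, the reads from DNA that was ligated to 1 chosen bait fragment in fixed nuclei. The study used it to follow contacts of enhancers and promoters in mouse embryonic stem (ES) cells, in cells differentiated from them and in thymocytes, and the 3 libraries with the SCR as bait are used here. NPC, the 1 library of cells after in vitro differentiation toward neural precursors, was made from embryoid bodies kept for 6 days without leukemia inhibitory factor, with 5 μM retinoic acid for the last 4 days, after culture without feeders in medium with MEK and GSK3 inhibitors (2i). The 2 ES libraries came from undifferentiated cells passaged off their feeder cells. The labels name the J1 line for all 3 libraries, whereas the Methods name F1 ES cells as the start of the differentiation, so that the cell line may differ between NPC and ES. Fixation (2% formaldehyde, 10 min) was the same for the 3 libraries. Permeabilization of nuclei with 0.4% SDS is listed for all 3, but the Methods give it for ES cells without naming the differentiated cells. The 4C reads carry no expression by which the NPC label could be checked.

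The files hold 2889643 reads for NPC, 6447786 for ES replicate 1 and 3915756 for ES replicate 2 over the whole chromosome. The region held 71723 reads in NPC, 148173 in ES replicate 1 and 78483 in ES replicate 2, which is 2.48%, 2.30% and 2.00% of those reads. The deposited reads carry no molecular identifiers, so that reads on 1 fragment may be copies of 1 ligation, and intervals on shares of fragments cover counting error only. Detection, the share of fragments with at least 1 read, depends less on such copies and is given first.

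Contact frequency in 4C falls with distance from the bait, because random collisions of the chromatin fibre become rarer, and at such distances single ligations stand as isolated spikes of reads. What can still be read is where in a wide stretch fragments are found at all. GENCODE vM1, an annotation of the mm9 build, places 4 protein-coding genes in the region. Ttc14 (33698877 to 33713782, plus strand) encodes a tetratricopeptide repeat protein. Ccdc39 (33711284 to 33743232, minus strand) encodes a coiled-coil protein needed to assemble the axoneme of motile cilia, and it overlaps Ttc14. Fxr1 (33919001 to 33968264, plus strand) encodes an RNA-binding protein of the fragile X family. Dnajc19 (33954942 to 33980243, minus strand) encodes a DnaJ-domain protein of the mitochondrial inner membrane, and it overlaps Fxr1. The annotation also lists the small nucleolar RNAs SNORA48 (33291979 to 33292121) and SNORA17 (33857991 to 33858122) and the pseudogene Gm9791 (33903939 to 33904385). All 4 protein-coding genes lie in the part nearest to the bait, so that the first 538.377 kb, with 1453 fragments, hold no annotated gene except SNORA48 and are called the distal stretch below. The remaining 304.483 kb, from the Ttc14 start to Sox2ot, hold 669 fragments and are called the gene block.

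Sequences of 4 fragments show what 1 member is and how differently the libraries counted it. Each is given in mm9, on the plus strand, with the DpnII site GATC and the Csp6I site GTAC in capitals, and the closing GATC belongs to the next fragment. The NPC fragment is the one with most NPC reads among those of at most 300 bases outside annotated UTRs (chr3:33354656-33354776, distal stretch, no gene), with 2009 reads in NPC and 0 in each ES library. The ES replicate 2 fragment was chosen likewise (chr3:33793729-33793965, between Ccdc39 and Fxr1), with 9 reads in NPC, 2 in ES replicate 1 and 2868 in ES replicate 2. The Fxr1 start fragment is the nearest of this kind to the start of Fxr1, 650 bp upstream of it (chr3:33918268-33918439), with 6 reads in NPC, 0 in ES replicate 1 and 2854 in ES replicate 2. The shared fragment (chr3:33914939-33915084, upstream of Fxr1) had the highest count in its poorest library among fragments of this kind only. It had 317 reads in NPC, 366 in ES replicate 1 and 114 in ES replicate 2. Fragments outside this choice reached more, such as that with midpoint 33929524, with 1961 in NPC, 3149 in ES replicate 1 and 1785 in ES replicate 2.
NPC fragment: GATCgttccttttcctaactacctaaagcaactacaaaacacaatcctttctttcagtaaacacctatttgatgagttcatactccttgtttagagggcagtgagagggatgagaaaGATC
ES replicate 2 fragment: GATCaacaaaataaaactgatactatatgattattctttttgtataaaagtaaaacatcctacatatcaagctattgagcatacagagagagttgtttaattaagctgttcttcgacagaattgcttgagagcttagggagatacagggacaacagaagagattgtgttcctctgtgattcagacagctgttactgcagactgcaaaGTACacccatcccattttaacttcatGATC
Fxr1 start fragment: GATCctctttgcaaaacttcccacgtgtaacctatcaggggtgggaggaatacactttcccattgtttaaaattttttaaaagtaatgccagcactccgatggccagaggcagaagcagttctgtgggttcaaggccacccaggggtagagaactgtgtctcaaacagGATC
shared fragment: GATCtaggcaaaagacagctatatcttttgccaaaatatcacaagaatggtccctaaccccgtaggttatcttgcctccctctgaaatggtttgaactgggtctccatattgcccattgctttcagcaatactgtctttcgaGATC
Of these, only the ES replicate 2 fragment holds a GTAC. GTAC, which reads the same on both strands, occurs in 45.4% of the region's fragments and in 44.8% of all 7392 fragments within 1.5 Mb of the bait. The fragment chosen likewise for ES replicate 1 (chr3:33968713-33968889, in an intron of Dnajc19) had 29 reads in NPC, 4902 in ES replicate 1 and 2 in ES replicate 2. The nearest fragments of this kind to the starts of Ttc14 and Ccdc39 had 0 reads in every library, and the one nearest to the start of Dnajc19 had 5 in NPC, 1 in ES replicate 1 and 0 in ES replicate 2. Each fragment chosen for its reads in 1 library was thus nearly empty in the others, a pattern that the choice by 1 library favours.

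Reads were found on 484 fragments of the region in NPC (22.8%, 95% Wilson interval 21.1 to 24.6), on 282 in ES replicate 1 (13.3%, 11.9 to 14.8) and on 395 in ES replicate 2 (18.6%, 17.0 to 20.3). The deepest library, ES replicate 1, thus detected the fewest fragments. Fragments detected in NPC had a median of 5 reads, against 36 in ES replicate 1 and 37 in ES replicate 2. With at least 10 reads required, NPC detected 9.38%, against 7.59% in ES replicate 1 and 12.4% in ES replicate 2, so that NPC lay above both ES libraries at 1 read and between them at 10. At the same distances past the SCR, over 2108 fragments from 35317641 to 36160500, detection was 32.8% in NPC, 19.8% in ES replicate 1 and 28.5% in ES replicate 2. The region was therefore detected at 0.696, 0.670 and 0.653 times its mirror position in NPC, ES replicate 1 and ES replicate 2. Reads per fragment were made comparable by quantile normalization over 1.5 Mb either side of the bait (normalized reads below). On this scale the region stood at 0.405 times its mirror position in NPC, 0.641 in ES replicate 1 and 0.573 in ES replicate 2 (exact sign-flip permutation test over 3 libraries, two-sided p = 0.25, the smallest that 3 libraries can give).

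Detection was not spread evenly over the region but stood high in the gene block and low in the distal stretch in all 3 libraries. In NPC, 341 of 669 fragments of the gene block had a read (51.0%, Wilson interval 47.2 to 54.7), against 143 of 1453 in the distal stretch (9.84%, 8.41 to 11.5). In ES replicate 1 it was 234 fragments of the gene block (35.0%, 31.5 to 38.7) against 48 of the distal stretch (3.30%, 2.50 to 4.35), and in ES replicate 2 it was 292 (43.6%, 39.9 to 47.4) against 103 (7.09%, 5.88 to 8.52). The gene block was therefore detected 5.18 times as often as the distal stretch in NPC, 10.6 times in ES replicate 1 and 6.16 times in ES replicate 2. It holds 31.5% of the region's fragments but had 75.1% of its reads in NPC, 86.0% in ES replicate 1 and 91.8% in ES replicate 2. This split follows the annotation but was chosen after the profile had been seen, so it is given without a test.

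The fall was steeper than the fall over the same distances on the other side of the bait. There the mirror of the gene block was detected at 43.1% in NPC, 28.7% in ES replicate 1 and 38.8% in ES replicate 2, and the mirror of the distal stretch at 26.2%, 14.2% and 22.0%. The ratio between the mirrored stretches was 1.64 in NPC, 2.01 in ES replicate 1 and 1.77 in ES replicate 2. The drop from the gene block to the distal stretch, as whole stretches, was thus 3.15, 5.26 and 3.48 times that at mirrored distances. In normalized reads the same contrast was 1.46 in NPC, 5.27 in ES replicate 1 and 11.3 in ES replicate 2. Its size, unlike its direction, thus differed widely between the measures in NPC and ES replicate 2. The split was chosen after the profile on this side had been seen, and not for a drop at the mirror. That choice favours a steeper fall on this side, so the contrast is described only. The distal stretch stood at 0.375 times its mirror in NPC, 0.232 in ES replicate 1 and 0.322 in ES replicate 2. The gene block stood at 1.18, 1.22 and 1.12 times its mirror.

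Fragment ends that occur once among all fragment ends of the mm9 genome move with this difference. A 27 nt read can be placed without ambiguity only on such an end, and fragments with one held 99.8% of the region's reads in NPC, 100.0% in ES replicate 1 and 99.9% in ES replicate 2. In all, 89.5% of fragments of the gene block had one, against 72.6% in the distal stretch, 75.2% in the mirror of the gene block and 84.8% in the mirror of the distal stretch. Over fragments with a unique end only, the gene block was detected 4.35 times as often as the distal stretch in NPC, 8.73 times in ES replicate 1 and 5.16 times in ES replicate 2. Relative to the mirror these ratios were 2.36, 3.94 and 2.62. With the same restriction the gene block stood at 1.00, 1.06 and 0.965 times its own mirror in NPC, ES replicate 1 and ES replicate 2, and the distal stretch at 0.426, 0.268 and 0.368 times. In detection the distal stretch thus lay under its mirror position in all 3 libraries, whereas the gene block lay close to its own. Fragments with a Csp6I site were detected more often than those without one (29.2% and 17.5% in NPC, 17.3% and 9.92% in ES replicate 1, 24.0% and 14.2% in ES replicate 2), and over fragments with the site only the gene block stood at 4.54, 9.14 and 6.34 times the distal stretch.

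**Figure D1:**
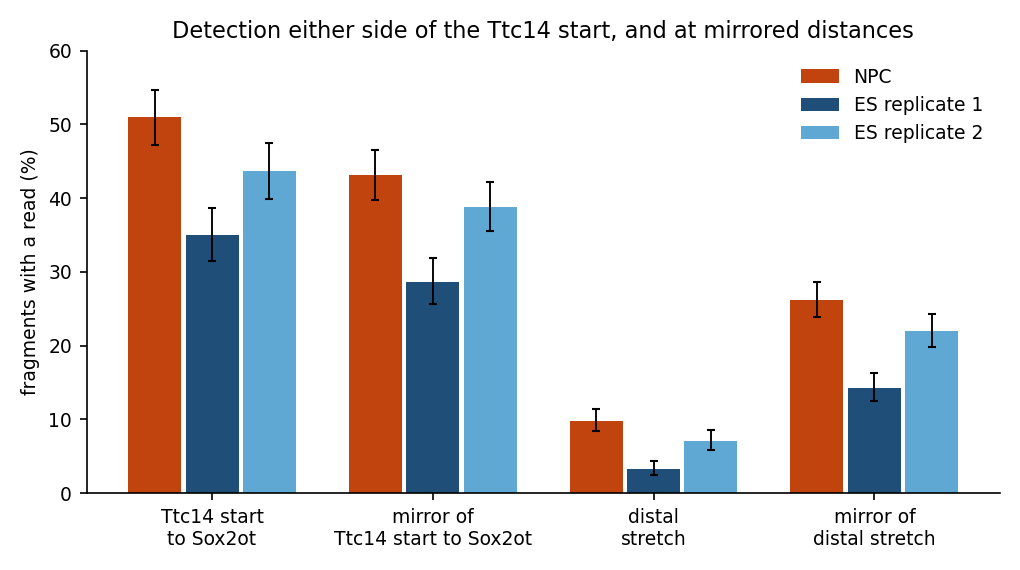
Share of fragments with at least 1 read (%, bars, from 0) in the gene block (Ttc14 start to Sox2ot) and the distal stretch, each beside the stretch at the same distances past the SCR, for NPC, ES replicate 1 and ES replicate 2. Error bars are 95% Wilson intervals over fragments; the distal stretch lies between 3.30% and 9.84% and its mirror between 14.2% and 26.2%.

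In steps of 20 kb, the region held 42 full steps. In the 26 steps wholly before the Ttc14 start, detection ran from 0% to 20% in NPC (median 9.31%), from 0% to 11.4% in ES replicate 1 (median 3.42%) and from 0% to 10.9% in ES replicate 2 (median 7.35%). In the 15 steps wholly inside the gene block it ran from 25.4% to 74.4% in NPC (median 53.3%), from 15.3% to 63.2% in ES replicate 1 (median 28.9%) and from 20.3% to 72.1% in ES replicate 2 (median 43.3%). The 2 sets of steps did not overlap in any library. The step that holds the Ttc14 start (chr3:33680500-33700499) lay near the lower set, with 13 of 68 fragments detected in NPC, 6 in ES replicate 1 and 11 in ES replicate 2. In the next step toward the bait (chr3:33700500-33720499), over Ttc14 and Ccdc39, it was 23 of 42 in NPC, 7 in ES replicate 1 and 18 in ES replicate 2. Detection thus rose sharply over these adjoining steps in NPC and ES replicate 2 and less so in ES replicate 1. Steps without any read numbered 1 in NPC, 7 in ES replicate 1 and 1 in ES replicate 2, and all lay in the distal stretch. The least detected step (chr3:33500500-33520499) had 0 reads on its 60 fragments in NPC, 0 in ES replicate 1 and 6 in ES replicate 2.

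**Figure D2:**
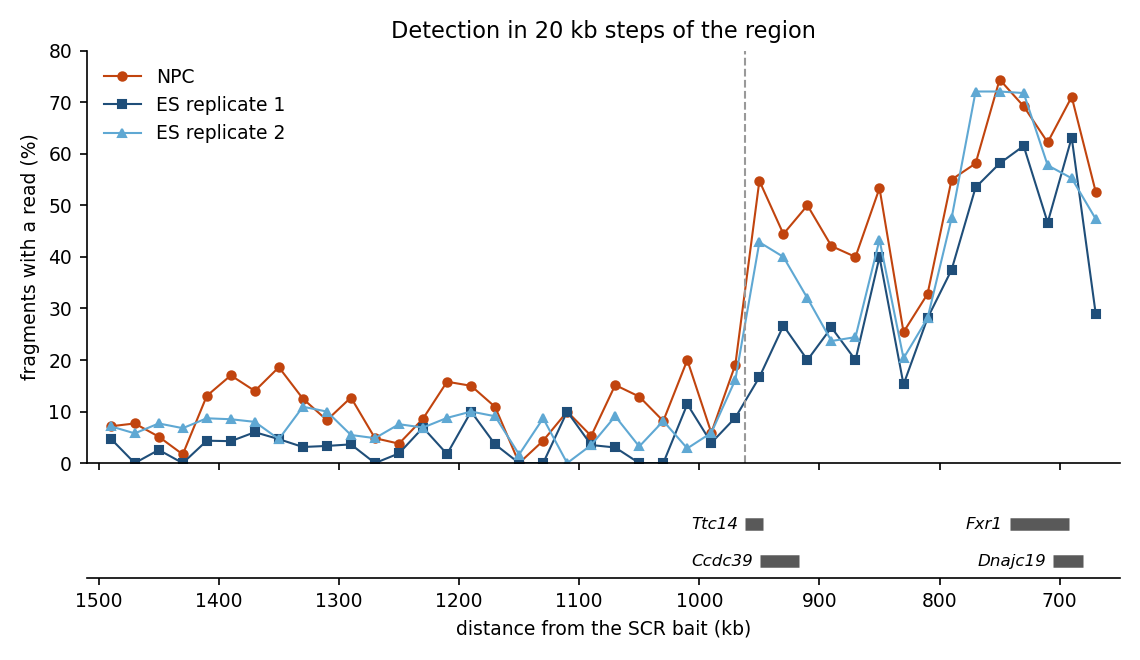
Share of fragments with at least 1 read (%) in each full 20 kb step of the region against distance from the SCR bait (kb, the bait being to the right), for NPC, ES replicate 1 and ES replicate 2. Grey bars below are the protein-coding genes and the dashed line is the Ttc14 start; no step before it passes 20% in any library and every step wholly past it lies at 15.3% or more.

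In steps of 50 kb the same order held. Of the 16 full steps, the 10 wholly in the distal stretch were detected at 6.08% to 17.8% in NPC, 1.55% to 5.08% in ES replicate 1 and 4.73% to 8.90% in ES replicate 2. The 5 wholly in the gene block were detected at 31.9% to 68.9% in NPC, 21.5% to 54.4% in ES replicate 1 and 26.1% to 68.0% in ES replicate 2. The step across the Ttc14 start (chr3:33660500-33710499) lay between them in ES replicate 1 and ES replicate 2, at 8.15% and 16.3%, while its 17.0% in NPC lay just under the highest distal step. Detection was highest in the last full step (chr3:33910500-33960499), over the start and most of the body of Fxr1 and the 3′ end of Dnajc19, at 68.9% in NPC, 54.4% in ES replicate 1 and 68.0% in ES replicate 2.

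Across the 4 intervals of the gene block, the pair Fxr1 and Dnajc19 was the most detected in all 3 libraries. Over these genes, 82 of 123 fragments had a read in NPC (66.7%), 69 in ES replicate 1 (56.1%) and 76 in ES replicate 2 (61.8%). Over Ttc14 and Ccdc39, it was 53 of 104 in NPC (51.0%), 25 in ES replicate 1 (24.0%) and 40 in ES replicate 2 (38.5%). The 175.768 kb between Ccdc39 and Fxr1, with the snoRNA gene SNORA17 and the pseudogene Gm9791, had 184 of 400 in NPC (46.0%), 129 in ES replicate 1 (32.3%) and 156 in ES replicate 2 (39.0%). Between Dnajc19 and Sox2ot, the part nearest to the bait, it was 22 of 42 in NPC (52.4%), 11 in ES replicate 1 (26.2%) and 20 in ES replicate 2 (47.6%). Detection thus did not simply increase toward the bait, since the last interval lay under Fxr1 and Dnajc19 in every library. At mirrored distances the counterpart of Fxr1 and Dnajc19 was detected at 70.5% in NPC, 54.9% in ES replicate 1 and 70.5% in ES replicate 2, close to the genes themselves. The counterpart of the last interval was detected at 40.0% in NPC, 27.7% in ES replicate 1 and 32.3% in ES replicate 2. A lower value nearest to the bait was thus seen on both sides.

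Reads per fragment gave another order, and unlike in detection the highest interval differed between libraries. After quantile normalization, Ttc14 and Ccdc39 together had a mean of 203 reads per fragment in NPC, against 50.9 in ES replicate 1 and 84.9 in ES replicate 2, a ratio of NPC to the ES mean of 2.99. Fxr1 and Dnajc19 had 126 in NPC, against 251 in ES replicate 1 and 135 in ES replicate 2, a ratio of 0.656. Between Dnajc19 and Sox2ot it was 15.8 in NPC, against 23.7 in ES replicate 1 and 176 in ES replicate 2, so that the ES replicates lay further from each other than NPC from ES replicate 1. The highest interval was therefore Ttc14 and Ccdc39 in NPC, Fxr1 and Dnajc19 in ES replicate 1, and the interval nearest to the bait in ES replicate 2. In that last case 46.1% of the interval's reads in ES replicate 2 lay on 1 fragment of 3121 reads.

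Gene by gene, Ccdc39 stood out. It had 237 normalized reads per fragment in NPC, against 18.4 in ES replicate 1 and 79.2 in ES replicate 2, 4.85 times the ES mean. NPC lay above both ES libraries also in detection, at 51.3% of 78 fragments, against 23.1% in ES replicate 1 and 39.7% in ES replicate 2. The 12427 NPC reads over Ccdc39 rested on few fragments, however. The top fragment held 3958 of them (31.8%), and the next held 2103, 1649, 1607, 1074 and 1073. Ttc14 had 89.8 reads per fragment in NPC, against 137 in ES replicate 1 and 90.2 in ES replicate 2. In each library 1 fragment held 71.9%, 64.4% and 81.6% of the Ttc14 reads in NPC, ES replicate 1 and ES replicate 2, so that the Ttc14 values rest on 1 fragment per library. Fxr1 had 152 in NPC, against 231 in ES replicate 1 and 155 in ES replicate 2, and was detected at 67.0%, 54.0% and 63.0% of its 100 fragments. Dnajc19 had 65.4 in NPC, against 249 in ES replicate 1 and 66.7 in ES replicate 2, and was detected at 69.1%, 54.5% and 56.4% of its 55 fragments. On this scale NPC lay close to ES replicate 2 for Ttc14, Fxr1 and Dnajc19. With TMM scaling it lay below both ES libraries for these genes, with ratios of 0.522 for Ttc14, 0.533 for Fxr1 and 0.275 for Dnajc19, whereas that of Ccdc39 was 3.37. Without ES replicate 1 the quantile ratio of NPC to ES was 0.980 for Dnajc19, against 0.414 with both, and for Ccdc39 it was 2.99 without ES replicate 1 and 12.8 without ES replicate 2. Ttc14 had a ratio of 0.791 over its body but 2.48 with 10 kb on each side, which take in part of Ccdc39. With 1 NPC and 2 ES libraries no exact test of a gene can give a p below 0.333, so these differences are described only.

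**Figure D3:**
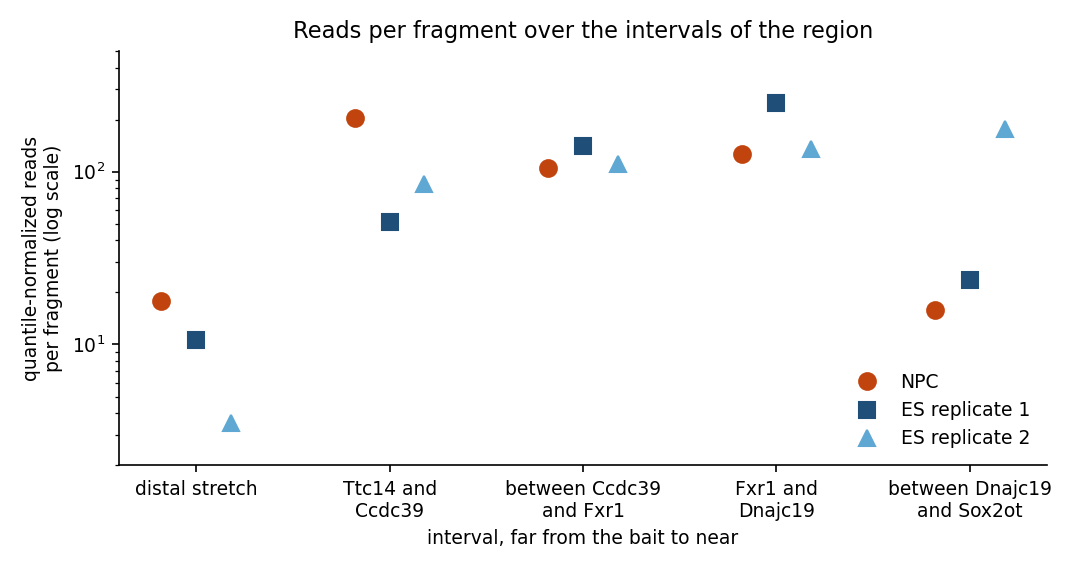
Mean quantile-normalized reads per fragment (log scale) over the distal stretch and the 4 intervals of the gene block, in order from far to near the bait; each point is 1 library, with no error bar since there is 1 value per library. NPC is highest over the distal stretch (17.9) and over Ttc14 and Ccdc39 (203), and lowest over the other 3 intervals.

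Over the whole region, the place of NPC among the ES libraries in reads depended on the scaling. After quantile normalization NPC had 49.6 normalized reads per fragment, against 51.3 in ES replicate 1 and 38.6 in ES replicate 2 (ES mean 44.9 ± 8.95, SD, n = 2), a ratio of 1.10 with NPC between the ES libraries (exact permutation test, two-sided p = 1, smallest possible p = 0.333). The 5 fragments with most reads held 23.6% of the region's reads in NPC, 19.6% in ES replicate 1 and 18.8% in ES replicate 2. With edgeR's TMM library sizes the ratio was 0.720, with NPC below both ES libraries (15.2 depth-scaled reads per fragment in NPC, against 23.5 in ES replicate 1 and 18.7 in ES replicate 2). With library totals it was 1.15, with NPC above both (11.7 in NPC, against 10.8 and 9.45). With reads within 1.5 Mb as scaling it was 1.36, again with NPC above both (23.1 in NPC, against 18.2 and 15.9, exact permutation test, two-sided p = 0.333, the smallest possible). Without ES replicate 2 the quantile ratio was 0.967. The distal stretch had 17.9 in NPC, against 10.6 in ES replicate 1 and 3.51 in ES replicate 2 (ratio 2.54, exact permutation test, two-sided p = 0.667). With TMM scaling its ratio was 1.57 (5.53 in NPC, against 4.82 and 2.23), with NPC closer to ES replicate 1. The gene block had 118 in NPC, against 140 in ES replicate 1 and 115 in ES replicate 2 (ratio 0.930, exact permutation test, two-sided p = 1), and with TMM scaling its ratio was 0.611, with NPC below both (p = 0.333 by the same exact test, the smallest possible).

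To ask which steps differed between NPC and ES cells, reads in 20 kb steps over 1.5 Mb either side of the bait were fitted with edgeR's quasi-likelihood test, whose spread rests on the 2 ES replicates, NPC being assumed to vary as they do. Of 147 steps tested, 14 (9.52%) were lower and 1 (0.68%) higher in NPC past an adjusted p of 0.05. Of the 41 steps of the region that were tested, 1 was lower and 0 were higher. At an unadjusted edgeR p under 0.05, 2 were lower (12.2% of all steps) and 1 was higher (2.72% of all steps). DESeq2 called 2 lower (11.6% of all steps) and 1 higher (4.08% of all steps) at its adjusted p. The region's share of called steps therefore lay under the 9.52% of all steps. TMM centres the values so that the median log2 fold change was -0.21 over all steps and -0.54 over the region's. With library totals as scaling the median over all steps was 0.45, and the region had 0 lower (4.76% of all steps) and 1 higher step (5.44% of all steps). Of the 147 steps, 65 had a positive and 82 a negative log2 fold change with TMM, against 90 and 57 with library totals, and of the region's 41 steps it was 18 and 23 with TMM, against 22 and 19.

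The called step holds the start of Fxr1 and the pseudogene Gm9791 (chr3:33900500-33920499). It had 1361 reads in NPC, against 20782 in ES replicate 1 and 9899 in ES replicate 2. The log2 fold change was -3.29 (SE 0.87, edgeR quasi-likelihood test, adjusted p = 0.0034). Both ES libraries lay far above NPC, and no single fragment held most of the reads, since the top fragment held 24.0% of the step's reads in NPC, 24.8% in ES replicate 1 and 34.8% in ES replicate 2. Detection in the same step did not differ in that way, with 32 of 43 fragments in NPC, 25 in ES replicate 1 and 31 in ES replicate 2. With library totals as scaling the log2 fold change was -2.61 (edgeR, adjusted p = 0.062), so the call did not hold there. With reads within 1.5 Mb as scaling the adjusted p was 0.084, and with DESeq2 it was 7.34e-05. In 10 kb steps neither part passed, at edgeR adjusted p = 0.0996 for the part with Gm9791 (chr3:33900500-33910499) and 0.321 for the part with the Fxr1 start (chr3:33910500-33920499). Steps of 50 kb also divide the called step. The 50 kb step with Gm9791 (chr3:33860500-33910499) had a log2 fold change of -2.69 and an edgeR adjusted p of 0.072. The 50 kb step with the Fxr1 start (chr3:33910500-33960499) had a log2 fold change of -1.33 and an edgeR adjusted p of 0.310. For fragments with a read in place of reads in the 20 kb step, the edgeR adjusted p was 0.998, the highest of all these.

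The steps on either side of it were the other high ones by the ES mean. The step before (chr3:33880500-33900499, no gene) had 94.0 normalized reads per fragment in NPC, against 205 in ES replicate 1 and 308 in ES replicate 2 (log2 fold change -2.00, edgeR adjusted p = 0.20). The step after (chr3:33920500-33940499), within Fxr1, had 155 in NPC, against 212 in ES replicate 1 and 287 in ES replicate 2 (log2 fold change -1.20, adjusted p = 0.66). In ES replicate 1 alone, the steps from 33940500 (285), 33960500 (255) and 33840500 (213) stood above both of these flanking steps. The called step had 42.5 in NPC, 347 in ES replicate 1 and 249 in ES replicate 2. By the ES mean and in ES replicate 2, the called step and its flanking steps, 3 adjoining steps around the Fxr1 start, were the highest of the region. None of the 3 highest NPC steps was among them. Those were chr3:33800500-33820499 (no gene), with 517 in NPC, 60 in ES replicate 1 and 90.5 in ES replicate 2, then chr3:33700500-33720499 over Ttc14 and Ccdc39, with 312, 34.4 and 71.9, and chr3:33240500-33260499 in the distal stretch, with 163, 2.30 and 0.072. Their log2 fold changes were 2.20 (edgeR adjusted p = 0.51), 1.86 (0.63) and 7.78 (0.16), and 1 fragment held 51.0%, 45.8% and 67.1% of the NPC reads in them. Calls of these steps depended on scaling and tool. The step from 33240500 passed as higher with library totals (edgeR adjusted p = 0.021), with reads within 1.5 Mb as scaling (0.012) and with DESeq2 (2.1e-05), and the step from 33800500 with reads within 1.5 Mb (edgeR adjusted p = 0.045).

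The steps at the other gene starts gave no call. The step of the Ttc14 start had a log2 fold change of -0.40 (SE 2.87, edgeR adjusted p = 0.95), that of Ccdc39 (chr3:33740500-33760499) -1.04 (SE 1.57, adjusted p = 0.93) and that of Dnajc19 (chr3:33960500-33980499) -2.10 (SE 1.43, adjusted p = 0.59). The farthest step (chr3:33160500-33180499) had 358 reads in NPC, against 1095 in ES replicate 1 and 107 in ES replicate 2, and the nearest full step (chr3:33980500-34000499) had 466 in NPC, against 994 in ES replicate 1 and 6657 in ES replicate 2. In the farthest step NPC lay between the ES replicates, and in the nearest it lay closer to ES replicate 1 than ES replicate 2 did. Besides chr3:33240500-33260499, the largest positive log2 fold changes with NPC above both ES libraries were 5.38 (chr3:33600500-33620499, 283 reads in NPC, 0 in ES replicate 1 and 12 in ES replicate 2) and 2.86 (chr3:33640500-33660499). The largest negative ones with NPC below both were -7.25 (chr3:33460500-33480499, 7 reads in NPC, 2586 in ES replicate 1 and 199 in ES replicate 2), -4.67 (chr3:33480500-33500499) and -3.90 (chr3:33200500-33220499). The steps named for their fold change all lie in the distal stretch, their standard errors ran from 3.31 to 6.48 and their edgeR adjusted p from 0.16 to 0.93. These steps hold few detected fragments, and none passed with TMM scaling in edgeR. With DESeq2 the step from 33460500 passed as lower (adjusted p = 0.025).

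NPC lay below both ES libraries in 14 of 42 steps of the region, against 37.2% of all 148 steps, and above both in 14, against 34.5% of all steps (TMM-scaled reads). In the gene block it was below both in 9 of 15 steps and above both in 4, and in the distal stretch below both in 5 of 26 and above both in 10. All 8 full steps from 33840500 on toward the bait had a negative log2 fold change, and 7 of them had NPC below both ES libraries, a run noticed in the profile and given without a test. In detection, NPC was above ES replicate 1 in every one of these steps, and below ES replicate 2 in those from 33880500 (25 fragments in NPC, against 31 in ES replicate 2) and 33920500 (27 in NPC, against 28).

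**Figure D4:**
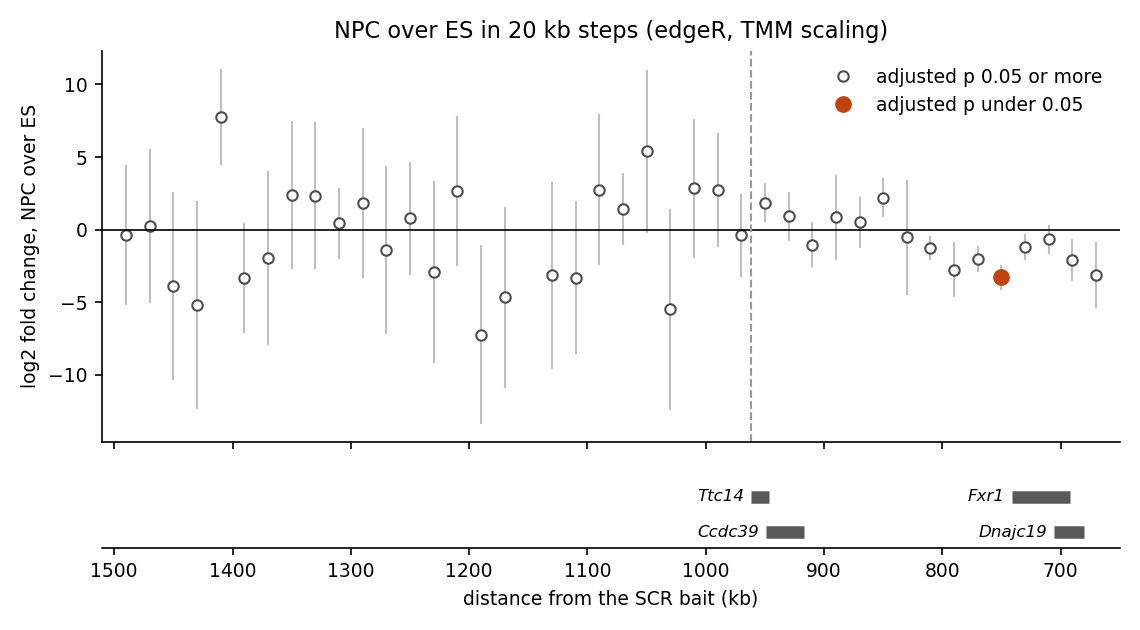
log2 fold change of NPC over ES in each tested 20 kb step (edgeR, TMM scaling; error bars are standard errors) against distance from the SCR bait (kb), with the protein-coding genes below and the Ttc14 start dashed. Standard errors are wide in the distal stretch and narrower over the gene block, and the filled point, at the Fxr1 start, is the 1 step past the adjusted p of 0.05.

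The ES replicates agreed on which part of the region was detected, but hardly on the reads of single fragments. They shared 165 fragments, 58.5% of the 282 in ES replicate 1 and 41.8% of the 395 in ES replicate 2. Over the shared fragments the Spearman correlation of their reads was 0.041, and the median difference of depth-scaled reads was 3.43 on the log2 scale. In the gene block 156 fragments were shared (66.7% and 53.4%), and in the distal stretch 9 (18.8% and 8.74%). The shared fragments thus lay largely in the gene block, where detection was denser. ES replicate 2 detected 43.6% of all gene block fragments, against 66.7% of those detected in ES replicate 1. In the distal stretch it detected 7.09% of all fragments, against 18.8% of those detected in ES replicate 1. Of all 2122 fragments, 147 were detected in all 3 libraries and 1439 in none, and 139 of the 147 lay in the gene block. Across the 42 steps of 20 kb, the Spearman correlation between the ES replicates was 0.59 for normalized reads and 0.75 for the number of fragments detected. Within the 15 steps of the gene block it was 0.19 for reads and 0.84 for detection, and within the 26 steps of the distal stretch -0.049 and -0.047. For reads, 7 of the 34 steps with reads in both ES replicates lay within a factor of 2, and for detection 25 did. At 50 kb, over 16 steps, the correlations were 0.52 for reads and 0.78 for detection. Steps of 1 library share its ligations and depth, so that these correlations are descriptions with no p.

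NPC shared 223 fragments with ES replicate 1, 79.1% of those detected in ES replicate 1, and 237 with ES replicate 2, 60% of those detected there. Many of the shared fragments had few reads in NPC and many in an ES library. Of the 110 fragments with at least 100 reads in ES replicate 1, 55 (50.0%) had 1 to 9 reads in NPC, against 161 of the 1840 fragments (8.75%) without a read in ES replicate 1. Of the 110, 95 lay in the densely detected gene block, and within it the shares were 48.4% and 22.3%. For the 118 fragments with at least 100 reads in ES replicate 2 it was 49 (41.5%), against 158 of 1727 (9.15%). In the distal stretch, 9 of the 15 fragments with at least 100 reads in ES replicate 1 had 1 to 9 reads in NPC and 0 had 10 or more. In the other direction, 14 of 85 fragments with at least 100 NPC reads had 1 to 9 in ES replicate 1 (16.5%), against 15 of 1638 without an NPC read (0.916%). Between the ES replicates, 15 of 110 fragments with at least 100 reads in ES replicate 1 had 1 to 9 in ES replicate 2 (13.6%), against 84 of 1840 (4.57%), and within the gene block the shares were 13.7% and 10.3%. Of the 118 fragments with at least 100 reads in ES replicate 2, 29 had 1 to 9 in ES replicate 1 (24.6%), against 49 of 1727 (2.84%). Within the gene block these shares were 28.0% and 8.22%, so low counts of this kind were not confined to NPC. The detection values of NPC move with these low counts, and their part in them was not tested further. Where a library's reads under 1% of those of the highest library were left out at each fragment, detection over the region was 19.4% in NPC, 11.9% in ES replicate 1 and 17.3% in ES replicate 2. The gene block then stood at 4.54 times the distal stretch in NPC, 9.28 in ES replicate 1 and 6.07 in ES replicate 2, and with at least 10 reads required at 5.69, 12.4 and 7.71 times. The reads left out were 0.470% of the region's reads in NPC, 0.037% in ES replicate 1 and 0.073% in ES replicate 2.

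**Figure D5:**
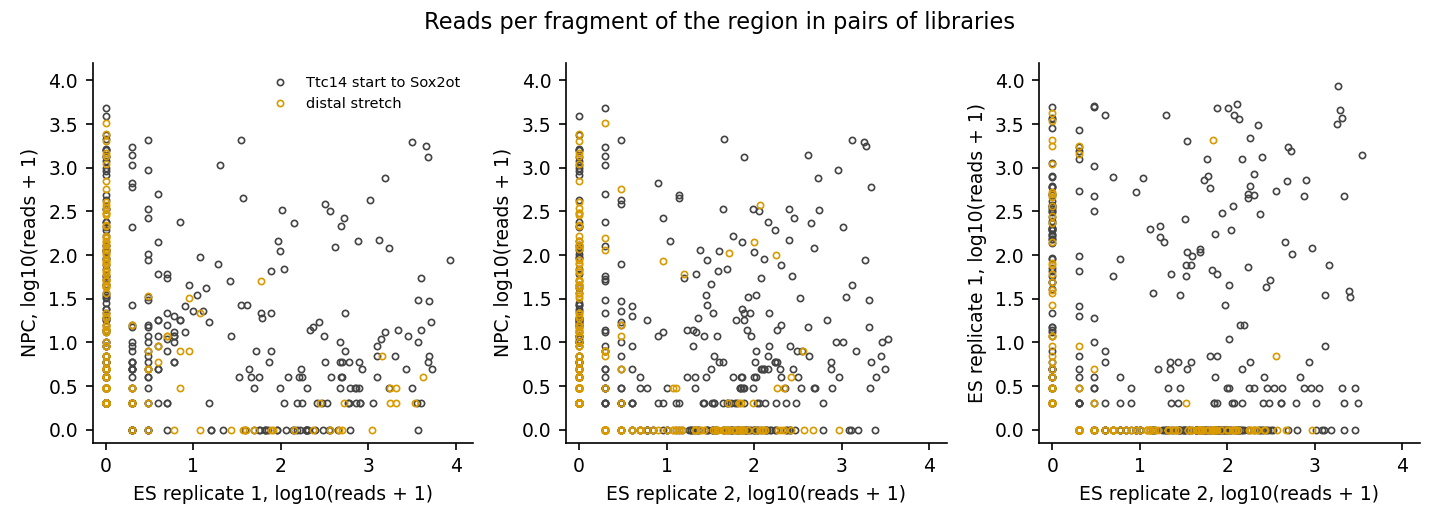
Reads of each fragment of the region in pairs of libraries, as log10(reads + 1) on both axes; each circle is 1 fragment detected in at least 1 of the pair, dark in the gene block (Ttc14 start to Sox2ot) and amber in the distal stretch. Fragments along an axis line had 0 reads in 1 library of the pair, and the band at low NPC values to the right of the left panel holds the 55 fragments with 1 to 9 NPC reads and at least 100 reads in ES replicate 1.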

How the data were processed

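Read counts per DpnII fragment of chromosome 3 were used from the 3 SCR libraries (1 NPC, 2 ES). The authors removed the bait part of each read with Sabre, aligned the 27 nt left to mm9 by Bowtie (the submitters' processing notes give version 1.0.0) and counted reads per fragment. The deposited counts are not normalized. Their user guide leaves out fragments with over 2% of all reads. All 391360 listed midpoints matched DpnII fragments of mm9. Counts within 1.5 Mb of the bait were quantile normalized, as the Methods describe (the range was chosen here), and these values were averaged per fragment. For the step tests the deposited counts, not the normalized ones, were summed. Steps were of 20, 50 and 10 kb counted from the bait, without the 20 kb either side of it. Steps were tested with edgeR version 4.0.16 (TMM, quasi-likelihood test, Benjamini-Hochberg adjustment) and DESeq2 version 1.42.0. The step test was also run on simulated counts in which NPC varied as the ES libraries did. That run therefore cannot check this assumption for the real NPC library. Genes are those of GENCODE vM1. Other alternatives concerned scaling, filter, capping at the 99th percentile, fragment class, minimum reads, thinning and left-out ES replicates. The members, lists and intervals were chosen with earlier results of these data known. The split at the Ttc14 start, the restriction to unique ends and the 1% limit were chosen after seeing the data. Named are all genes of the region, the highest steps and largest fold changes, the end steps and steps with gene starts. Whether the ES replicates are separate cultures rests on the study calling them biological replicates. The edgeR and DESeq2 p-values set the NPC difference against a spread that rests on these 2 libraries. The exact tests only rearrange or flip the values of the 3 libraries. Satb1 and Ikzf1 libraries were not used here.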

Additional observations from a re-analysis of the deposited data

Results flagged for a closer look

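Each interval, the gene block, the distal stretch and the region were set over their mirrors, and 1 gene pair over the other. In 4 of these ratios of normalized reads per fragment, NPC and both ES libraries lay on opposite sides of 1, and none of these differences was tested. The gene block takes in the intervals, so the 4 are not separate observations. ES replicate 2 alone lay above 1 between Dnajc19 and Sox2ot, at 3.41, against 0.0455 in NPC and 0.282 in ES replicate 1. Ttc14 and Ccdc39 stood at 2.34 times their mirror position in NPC, against 0.200 in ES replicate 1 and 0.615 in ES replicate 2. The interval between Ccdc39 and Fxr1 stood at 0.787 times its mirror in NPC, against 2.18 in ES replicate 1 and 1.32 in ES replicate 2. The whole gene block stood at 0.506 times its mirror in NPC, against 1.10 in ES replicate 1 and 1.02 in ES replicate 2. Fxr1 and Dnajc19 stood at 0.622 times Ttc14 and Ccdc39 in NPC, against 4.92 in ES replicate 1 and 1.59 in ES replicate 2. With TMM-scaled reads all 4 ratios kept this pattern. In detection none did, at 1.57, 0.838 and 1.18 for Ttc14 and Ccdc39 over their mirror in NPC, ES replicate 1 and ES replicate 2, at 1.16, 1.44 and 1.16 for the interval between the gene pairs, at 1.18, 1.22 and 1.12 for the gene block, and at 1.31, 2.33 and 1.61 for the last ratio.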

How the results depend on the processing

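The drop from the gene block to the distal stretch, the low detection of the distal stretch and the region's level under its mirror kept their direction in every library under each alternative that changed their values. Capping reads at the 99th percentile of detected fragments changed no value of the region's fragments, since its limits of 8454, 35752 and 19496 reads in NPC, ES replicate 1 and ES replicate 2 lay above the highest fragments there (4866, 8685 and 3442 reads), so it says nothing about stability. The NPC over ES ratio of reads, 1.10, was 0.720 with TMM library sizes, 1.36 with reads within 1.5 Mb as scaling, 1.26 over fragments with a Csp6I site and 0.814 over those without, and 0.967 to 1.28 with 1 ES replicate left out. Detection in NPC, ES replicate 1 and ES replicate 2 was 17.7%, 11.03% and 15.8% with at least 2 reads, 9.38%, 7.59% and 12.4% with at least 10, 29.2%, 17.3% and 24.0% over Csp6I fragments, and 28.7%, 16.9% and 23.5% over fragments with a unique end. Over fragments of at least 100 bp it was 25.2% in NPC and 20.8% in ES replicate 2, after thinning 11.4% in ES replicate 1, and without reads under 1% of the highest library 19.4% in NPC. The gene block over its mirror, 1.17 as a geometric mean in detection, was 0.829 in normalized and 0.840 in depth-scaled reads.

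The 1 lower step of the region became 0 with library totals, with reads within 1.5 Mb as scaling, in 50 kb and 10 kb steps and with fragments in place of reads, and 2 with DESeq2. Higher steps, 0 with TMM, numbered 1 with library totals, 2 with reads within 1.5 Mb and 1 with DESeq2. The step from 33240500 was higher under all of these, and that from 33800500 with reads within 1.5 Mb only. DESeq2 added that from 33460500 as lower. Over all steps, 14 lower and 1 higher became 7 and 8 with library totals, 5 and 16 with reads within 1.5 Mb, 17 and 6 with DESeq2, 5 and 0 in 10 kb steps, and 0 and 0 in 50 kb steps and for fragments. The cause was not tested. The Spearman correlation of the ES replicates was 0.52 in 50 kb steps and 0.75 for detected fragments.

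Single values turned as follows. Ttc14 had a ratio of 2.48 with 10 kb each side. The step from 33160500 had a log2 fold change of 0.33 with library totals, 0.56 with reads within 1.5 Mb, and -1.19 to 1.56 with 1 ES replicate left out. The step from 33680500 had 0.32 and 0.55 by those scalings, 0.37 for fragments, and -1.08 to 0.96 with 1 ES replicate left out. In 10 kb steps, the far and near parts of a 20 kb step differed in sign, at 4.06 and -1.55 for that from 33680500, -0.31 and 4.22 for 33700500, and 0.032 and -2.19 for 33920500. For fragments 33740500 had 0.70, 33960500 had 0.024 and 33980500 had 0.22. Values with 1 ES replicate have no test. No paired analysis was possible because the single NPC library shares no pair of replicate numbers with the ES libraries. With 1 NPC library, differences from ES cells cannot be told apart from those of that library, of its depth or of its cell line.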
